A study of Mus musculus with 2 samples.

Results

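Genes of glycolysis and of the hypoxia response were followed in the developing cortex of control and Rcor2cko mouse embryos. Rcor2 is a corepressor that works with the histone demethylase LSD1. They were chosen by name: 37 symbols were listed, Pkm is given in the files under its older symbol Pkm2, and 36 genes were found of 21896 in all. The tissue was the proliferative wall of the cortex, the ventricular and subventricular zones (VZ–SVZ), of C57/BL6 embryos at E13.5, sequenced in 1 Rcor2fl/fl library, whose floxed Rcor2 alleles served as the control, and 1 Rcor2cko library, from Rcor2fl/fl embryos in which Cre recombinase under the Nestin promoter excises the floxed exons. Nestin-driven Cre acts mainly in the neural lineage, so that vessels, blood and microglia in the tissue lie largely outside the deletion. By the study's naming, Rcor2fl/fl embryos that carry Nestin-Cre are the Rcor2cko, so that the presence of Cre also differs between the libraries. The number of embryos behind each library is not given in the sources used here, and E15.5 was not analysed here. Since each genotype has 1 library, a difference compares this pair of libraries, and embryo, sex, dissection and genotype cannot be told apart.

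Glycolysis splits glucose into pyruvate in the cytosol, and pyruvate is either reduced to lactate or oxidised in mitochondria. Embryonic neural progenitors, like many proliferating cells, rely strongly on this route, and express the embryonic isoenzymes alongside those typical of brain. When oxygen is low, prolyl hydroxylases no longer mark the alpha subunits of hypoxia-inducible factor (HIF) for destruction, and HIF induces glucose transporters, most glycolytic enzymes, Vegfa and a set of adaptive genes. HIF binds short cores, ACGTG or GCGTG, near these genes.

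Values are FPKM, a measure of fragments corrected for transcript length and library depth, so that levels can be compared between genes. Each change is log2 of the ratio of (FPKM + 0.1), with Rcor2cko in the numerator, a scale that understates changes of low genes. Counts were recovered from the spacing of low FPKM values, which sit on whole fragments. This spacing gave scaling totals of 18841684 fragments in the Rcor2fl/fl and 25479853 in the Rcor2cko library, and at least 99.3% of the values of up to 100 fragments were within 0.1 of a whole number. For the 30 of the 36 genes with 1 transcript, the recovered fragments gave a 95% Clopper-Pearson (exact) interval of the change, computed without the 0.1. It covers counting error and not the variation between embryos or dissections. Its width falls as fragments rise, and the shares of intervals that exclude 0 given below were not matched on level. The floor at this depth, 3 fragments, corresponds to 0.0882 and 0.0654 FPKM for a transcript of 2000 nt. Rcor2 itself, over its whole transcript, exons beyond the floxed ones included, was at 90.6 and 55.7 FPKM, or -0.70 on the log2 scale. The study reports no RNA signal over the floxed exons in the Rcor2cko cortex at this age, and loss of the protein by western blot. Reads over the floxed exons alone were not examined here. All 7 radial glia markers and all 6 postmitotic neuron markers exceeded 10 FPKM in both libraries, while all 6 meningeal markers were under 1 FPKM. The neuron markers summed to 1407 and 1357 FPKM and the radial glia markers to 861 and 1012 FPKM. The levels of the members are thus those of a mixed tissue and not of progenitors alone.

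The promoters of the genes that stood at the ends of the range are shown first, so that the levels below can be read beside them. With them is the Ldha promoter that held ACGTG at the most positions among the members. RefSeq promoters on GRCm38.p6 were matched for 32 of the 36 genes (none matched for Slc2a3, Epas1, Bnip3l and Ndrg1). Each line gives the 250 bases before the start site, 5′ to 3′, with ACGTG and GCGTG cores on either strand in capitals (CACGTG holds ACGTG on both strands and was counted at 2 positions). These coordinates are on another build than the expression files, which use mm9.
Slc16a3, chr11:120948817-120949066, plus strand: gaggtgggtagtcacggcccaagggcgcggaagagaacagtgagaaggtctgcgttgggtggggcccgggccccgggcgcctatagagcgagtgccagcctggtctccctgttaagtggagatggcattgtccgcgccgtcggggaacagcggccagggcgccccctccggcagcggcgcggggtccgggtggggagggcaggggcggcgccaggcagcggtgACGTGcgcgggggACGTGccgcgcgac
Ankrd37, chr8:45999851-46000100, minus strand: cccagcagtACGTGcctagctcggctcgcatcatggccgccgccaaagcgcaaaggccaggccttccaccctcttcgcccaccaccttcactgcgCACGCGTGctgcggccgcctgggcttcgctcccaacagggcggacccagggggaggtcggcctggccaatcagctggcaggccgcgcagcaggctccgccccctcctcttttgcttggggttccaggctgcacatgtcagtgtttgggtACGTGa
Ddit4, chr10:59951771-59952020, minus strand: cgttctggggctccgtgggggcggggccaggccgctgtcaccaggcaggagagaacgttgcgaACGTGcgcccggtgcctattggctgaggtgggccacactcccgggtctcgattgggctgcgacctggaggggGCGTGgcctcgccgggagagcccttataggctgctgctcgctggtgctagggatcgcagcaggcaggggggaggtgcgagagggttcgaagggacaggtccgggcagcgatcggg
Slc16a1, chr3:104638414-104638663, plus strand: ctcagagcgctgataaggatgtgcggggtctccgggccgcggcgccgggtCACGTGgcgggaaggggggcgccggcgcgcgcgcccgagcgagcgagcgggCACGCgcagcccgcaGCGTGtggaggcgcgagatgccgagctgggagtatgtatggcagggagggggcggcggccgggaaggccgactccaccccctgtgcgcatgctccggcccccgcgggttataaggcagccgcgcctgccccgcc
Hk2, chr6:82774455-82774704, minus strand: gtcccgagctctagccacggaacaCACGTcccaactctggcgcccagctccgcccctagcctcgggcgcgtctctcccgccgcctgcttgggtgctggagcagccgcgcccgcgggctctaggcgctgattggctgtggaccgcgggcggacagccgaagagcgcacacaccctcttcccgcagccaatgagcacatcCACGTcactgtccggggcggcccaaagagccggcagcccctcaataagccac
Pdk3, chrX:93832151-93832400, minus strand: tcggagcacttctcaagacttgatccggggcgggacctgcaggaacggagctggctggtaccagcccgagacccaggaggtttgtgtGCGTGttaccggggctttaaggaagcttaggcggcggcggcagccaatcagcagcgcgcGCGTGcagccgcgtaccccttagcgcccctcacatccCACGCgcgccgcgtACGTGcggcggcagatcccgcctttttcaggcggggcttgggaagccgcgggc
Ldha, chr7:46845554-46845803, plus strand: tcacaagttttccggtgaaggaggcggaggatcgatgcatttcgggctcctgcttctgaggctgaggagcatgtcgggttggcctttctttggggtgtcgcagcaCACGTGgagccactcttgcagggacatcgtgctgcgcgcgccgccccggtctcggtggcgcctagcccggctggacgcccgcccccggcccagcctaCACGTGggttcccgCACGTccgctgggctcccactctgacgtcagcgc

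Of these, Slc16a3, Ankrd37 and Ddit4 were the genes with a matched promoter that were highest in the Rcor2cko library relative to control, and Slc16a1, Hk2 and Pdk3 the lowest. The promoters of these genes at the ends of the range each held at least 1 core, as did 29 of the 32 members with a matched promoter (90.6%). The Ldha promoter was chosen for its cores. No share of promoters with either core was computed for the background. The cores of Slc16a3 began 27 and 14 bases before the start site, and those of Hk2, which has no GCGTG, 226 and 52 bases before it. The Ldha promoter shown carried ACGTG at 5 positions, from 145 to 34 bases before the start. Another Ldha promoter, at chr7:46846832-46847081, held 0 ACGTG and 1 GCGTG in its 250 bases. Over the full windows of 300 bases, 25 of the 45 promoters of the members (55.6%) held ACGTG, against 25.3% of the 10841 promoters of genes with at least 1 FPKM and 19.6% of all 32851 promoters. For GCGTG the shares were 57.8%, 51.6% and 32.4%. Some of the 45 windows belong to the same gene and overlap, as for Aldoa, so that 1 site can count more than once. By gene, 23 of the 32 (71.9%) held ACGTG, and no share by gene was computed for the background. A core is a match of letters and does not show that a factor binds there.

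Of the 36 genes, 34 reached 1 FPKM in either library or both, and none of these differed more than 1.5-fold between the libraries. Over all 11777 genes that passed the same filter, 3.79% were higher and 1.76% lower by that margin in the Rcor2cko library. The values of the 34 genes ran from -0.39 for Slc16a1 to 0.55 for Ndrg1, with a median of -0.06, beside a median of -0.03 over all genes tested. Of these 34 genes, 28 lay between -0.32 (Pdk3) and 0.24 (Pfkp). The 6 others were Slc16a1 and Hk2, which were lower in the Rcor2cko library, and Ddit4, Ankrd37, Slc16a3 and Ndrg1, which were higher. Ndrg1 was the only one of the 34 for which the 95% FPKM intervals in the files did not overlap, and among all genes tested 2.26% were higher and 1.21% lower by that measure. Judged by counting error alone, 3 of the 28 genes with an exact interval lay above 0 and 11 below, where 13.9% and 22.9% of 8758 genes did so. With median scaling the members above and below 0 were 4 and 9, and the shares over all genes 17.9% and 16.8%.

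**Figure D1:**
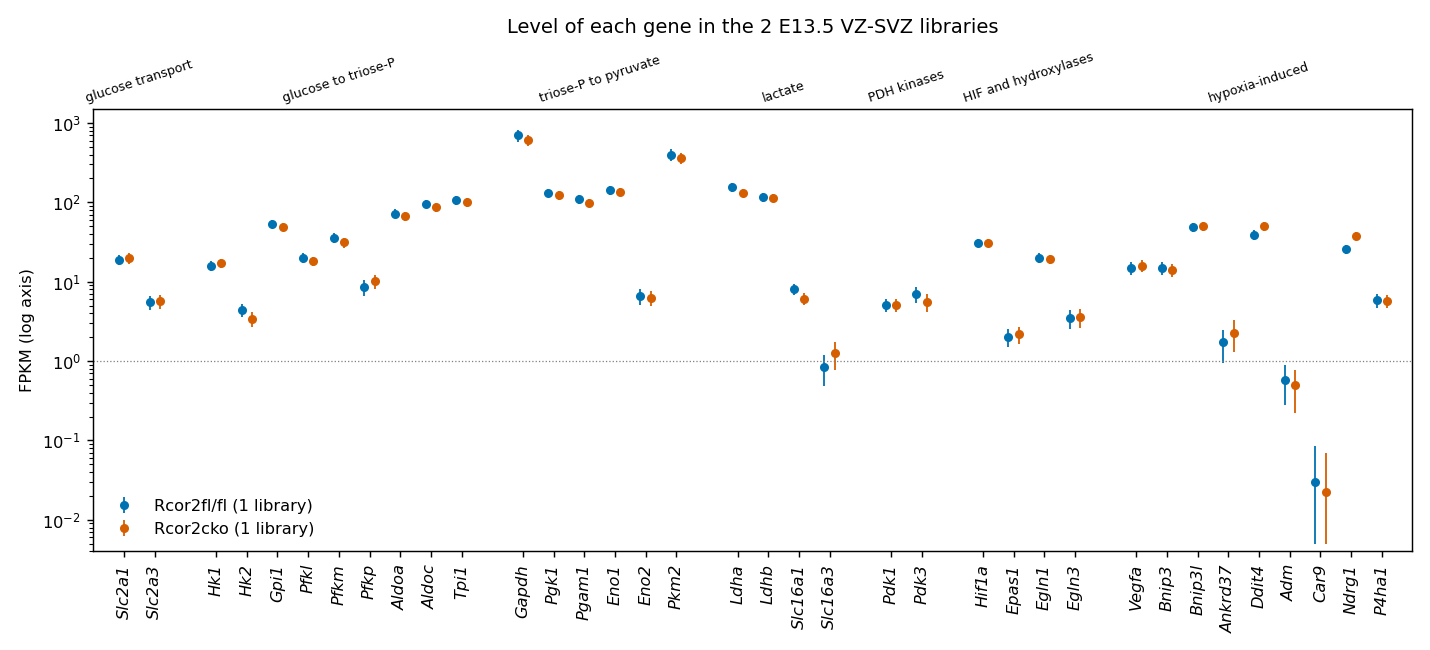
FPKM on a log axis for the 36 genes, grouped by role, in the Rcor2fl/fl (blue) and Rcor2cko (orange) library. Bars are the 95% FPKM intervals of the files, combined over transcripts in the control library and cut at the axis for Car9. The dotted line marks 1 FPKM. Levels ran from under 0.1 FPKM for Car9 to 697 FPKM for Gapdh, and the intervals of the libraries did not overlap for Ndrg1 alone among the genes of at least 1 FPKM.

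The glycolytic enzymes were lower in the Rcor2cko library in 13 of 15 cases, or 12 with quantile normalization, by small amounts. Over all genes tested 57.6% were lower, and 49.4 to 53.1% under the scaling alternatives. The median log2 change of the enzymes was -0.12, and the sum of their FPKM went from 1894 to 1726. The exact interval lay below 0 for 9 and above 0 for 1 of the 12 enzymes with 1 transcript, against 22.9% below and 13.9% above over all genes. Tpi1 lost this call under all 4 scaling alternatives, and Pgk1 under all but total scaling, which left 7 or 8 below 0. Abundant genes have narrower intervals, and the shares over all genes were not matched on level. An excess among the enzymes can therefore not be read from them. None of the 15 had FPKM intervals in the files that were separate.

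In the first steps, hexokinases trap glucose as glucose 6-phosphate. Hk1, the usual isoenzyme of brain, was at 15.8 FPKM in the Rcor2fl/fl and 17.2 FPKM in the Rcor2cko library, or 0.12 on the log2 scale. Hk2, the inducible isoenzyme of proliferating cells, at chr6:82675019-82724448 of mm9 on the minus strand, was at 4.42 and 3.39 FPKM, from 443 and 459 fragments, or a log2 ratio of -0.37 (interval from -0.57 to -0.19). Hk1 thus exceeded Hk2 by 3.58 times in the control and 5.07 times in the Rcor2cko library. Gpi1, which converts glucose 6-phosphate to fructose 6-phosphate, was at 53.8 and 49.5 FPKM, or a log2 ratio of -0.12 (-0.19 to -0.05).

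Phosphofructokinase, the committed step, is built from 3 kinds of subunit. Pfkm was the most abundant, at 35.6 and 31.3 FPKM, followed by Pfkl at 20.1 and 18.1 FPKM and Pfkp at 8.51 and 10.1 FPKM. Pfkm and Pfkl were lower in the Rcor2cko library, with log2 changes of -0.18 and -0.15, the latter within -0.26 to -0.05. Pfkp, the platelet type, was the one glycolytic enzyme whose interval lay above 0, with a log2 change of 0.24 (608 and 974 fragments, 0.10 to 0.40). Within each library, a measure that a scaling factor cannot move, Pfkp made up 13.3% of the subunit FPKM in the control and 17.0% in the Rcor2cko library. The ratio of Pfkl to Pfkp changed by -0.40 on the log2 scale, with a 95% interval from -0.58 to -0.22 by normal approximation on the 4 fragment numbers.

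The next enzymes cleave the hexose and interconvert its products. Aldoa, the ubiquitous aldolase, was at 72.04 and 67.0 FPKM, and Aldoc, the aldolase of brain and of radial glia, was higher than Aldoa in both libraries, at 96.0 and 86.8 FPKM. Their log2 changes were -0.10 and -0.15. The radial glia markers were mixed in sign, since 4 of the 7 were lower and 3 higher (3 and 4 under every scaling alternative), with a median of -0.02 and a summed level of 861 and 1012 FPKM, or 489 and 473 FPKM without Fabp7. Tpi1, the triose phosphate isomerase, was at 106 and 101 FPKM, or a log2 ratio of -0.08 (-0.15 to -0.01), an interval that included 0 under each scaling alternative.

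In the steps from triose phosphate to pyruvate, all 6 enzymes were lower, with Eno1 changing sign under quantile normalization. Gapdh, the glyceraldehyde 3-phosphate dehydrogenase often used as a reference gene, had the highest level of the 36 genes, at 697 and 615 FPKM, or a log2 ratio of -0.18 (-0.21 to -0.15). Pkm2, the pyruvate kinase of the last step, followed at 396 and 363 FPKM, or a log2 ratio of -0.13 (-0.16 to -0.10). The file of the control library holds 1 transcript row for this gene, so that its splice forms M1 and M2 were not resolved.

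Pgk1, the phosphoglycerate kinase, was at 131 and 124 FPKM, or a log2 ratio of -0.09 (-0.15 to -0.03), and Pgam1, the mutase, at 109.5 and 99.0 FPKM, or a log2 ratio of -0.15 (-0.21 to -0.08). Both intervals lay below 0, that of Pgk1 no longer so with median, upper-quartile or quantile scaling. Eno1, the ubiquitous enolase, was at 141 and 136 FPKM, or a log2 ratio of -0.05 (-0.11 to 0.01). Eno2, the neuronal enolase, was at 6.58 and 6.28 FPKM, or a log2 ratio of -0.07 (-0.29 to 0.16). The ratio of the enolases was nearly the same in both libraries, Eno1 exceeding Eno2 by 21.5 and 21.7 times. Genes such as Gapdh, Pgk1 and Pgam1 have processed pseudogenes in the mouse genome, and how reads shared with them were assigned is not given in the sources used here.

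**Figure D2:**
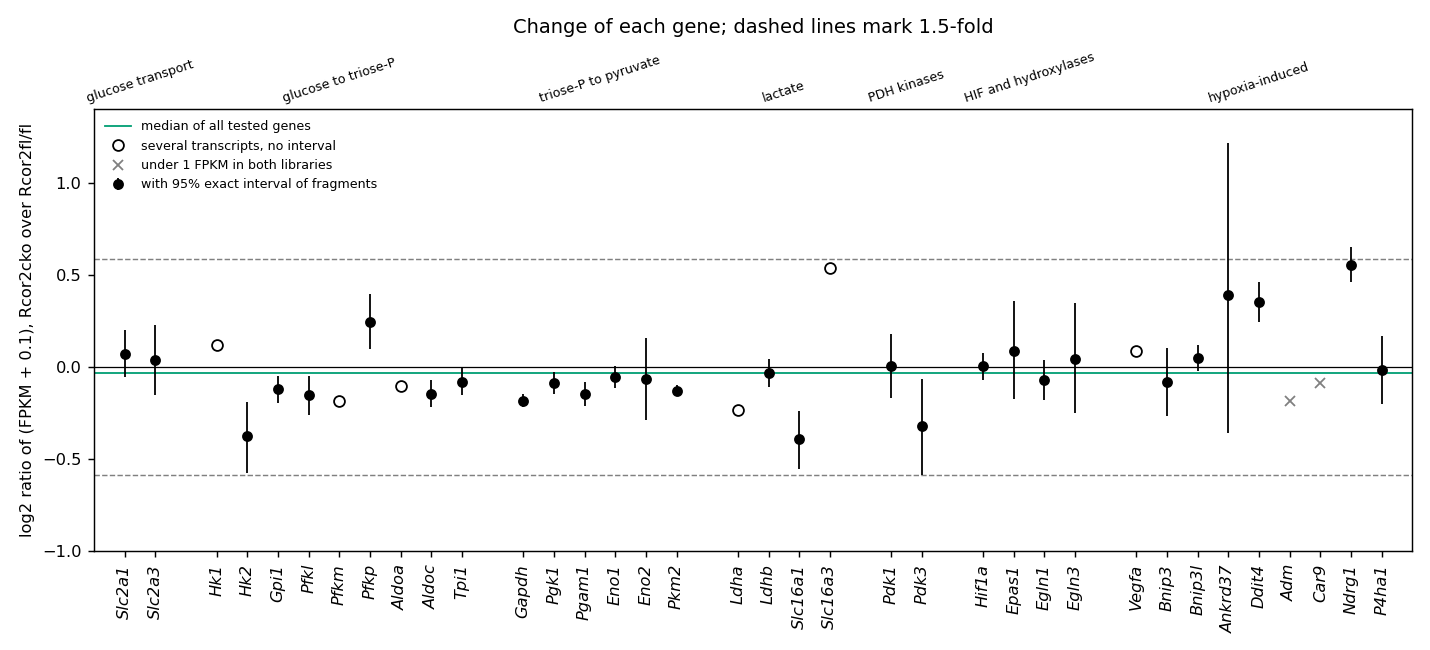
Change between the libraries, log2 of Rcor2cko over Rcor2fl/fl with 0.1 FPKM added to each, for each gene by role; filled points carry the 95% exact interval of recovered fragments, open points have several transcripts and no interval, crosses are under 1 FPKM in both libraries, dashed lines mark 1.5-fold and the green line the median of all genes tested, -0.03. No filled or open point crosses a dashed line; Ndrg1 at 0.55 and Slc16a3 at 0.54 lie nearest the upper line and Slc16a1 at -0.39 nearest the lower.

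The most abundant members shared a sign: all 11 genes with a mean of at least 50 FPKM, 9 glycolytic enzymes and both lactate dehydrogenases, were lower, except that Eno1 turned positive under quantile normalization and Ldhb under median scaling and quantile normalization. Their median was -0.12. Among all 1052 genes of that level, 61.8% were lower and the median was -0.04. The members of 20 to 50 FPKM, which include Ndrg1 and Ddit4, were lower in 1 of 5 cases, against 63.4% of 2244 genes.

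**Figure D3:**
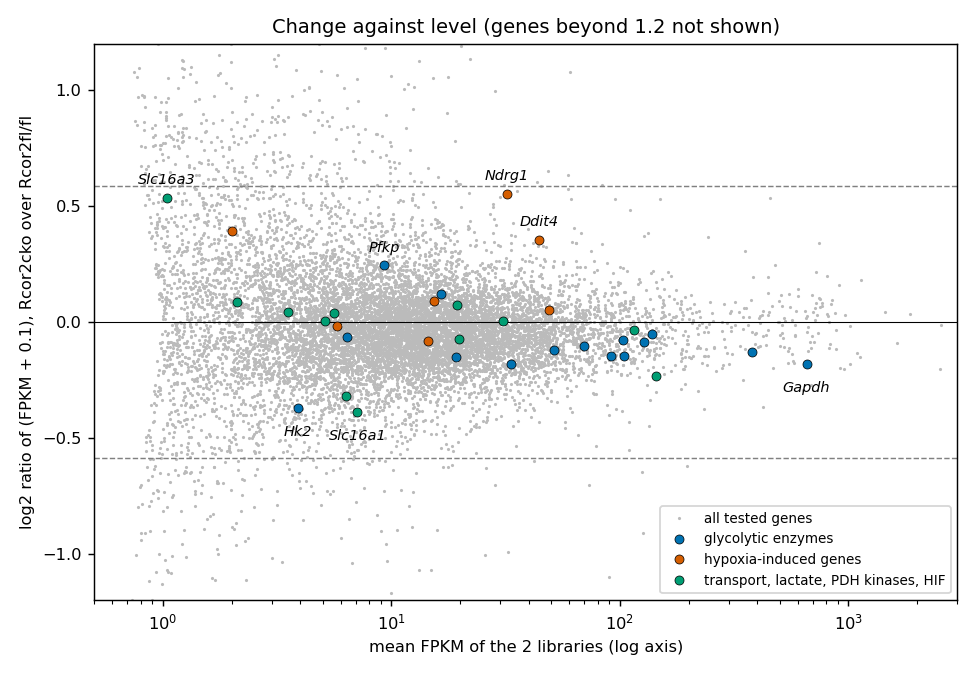
Log2 ratio of (FPKM + 0.1) against the mean FPKM of the libraries (log axis) for all genes tested (grey, those beyond 1.2 not shown), glycolytic enzymes (blue), hypoxia-induced genes (orange) and the other members (green); dashed lines mark 1.5-fold. The blue points above 50 FPKM all lie below 0, of which Eno1 moves above 0 under quantile normalization, and Ndrg1 and Ddit4 lie above most genes of like level.

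The glucose transporters stood close to their control levels. Slc2a1, the glucose transporter of the blood-brain barrier and of progenitors, was at 18.9 and 19.9 FPKM, or a log2 ratio of 0.07 (-0.06 to 0.20). Slc2a3, the neuronal glucose transporter, was at 5.51 and 5.66 FPKM, or a log2 ratio of 0.04 (-0.15 to 0.23). Both intervals include 0. The endothelial markers, whose cells also express Slc2a1, were higher in 7 of 8 cases (8 with median or upper-quartile scaling) without any interval above 0 (2, those of Cdh5 and Tek, with median or upper-quartile scaling, and 1, that of Cdh5, with total scaling), and summed to 34.2 and 36.5 FPKM, with none at 0. Their part in the value of Slc2a1 was not tested. As in any bulk sample, fewer cells of a type and less RNA per cell cannot be told apart.

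At the branch to lactate, the subunits of lactate dehydrogenase had unequal changes, with Ldhb changing sign under median scaling and quantile normalization. Ldha, which favours the formation of lactate, was at 155 and 132 FPKM, or a log2 ratio of -0.23. Ldhb, which favours its use, was at 116 and 114 FPKM, or a log2 ratio of -0.03 (-0.11 to 0.04). The ratio of Ldha to Ldhb was 1.33 in the control and 1.16 in the Rcor2cko library. Ldha has a second transcript in the control file, at 0.113% of its FPKM, so that its fragments were not recovered; its FPKM intervals in the files, 135 to 174 and 116 to 148, overlapped.

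The monocarboxylate transporters, which carry lactate across the cell membrane, had opposite signs. Slc16a1 (MCT1), at chr3:104442591-104462385 of mm9 on the plus strand, was at 8.08 and 6.14 FPKM (644 and 661 fragments), the lowest change of all members, at -0.39 (-0.55 to -0.24). Slc16a3 (MCT4), the form of highly glycolytic cells, was at 0.835 and 1.26 FPKM, or a log2 ratio of 0.54, and its FPKM intervals in the files, 0.485 to 1.19 and 0.776 to 1.74, overlapped. Without a pseudocount its change was 0.59, just past 1.5-fold. The ratio of Slc16a1 to Slc16a3 went from 9.67 to 4.89.

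Pyruvate dehydrogenase kinases hold pyruvate back from mitochondria. Pdk1, the HIF-inducible kinase, was at 5.11 and 5.13 FPKM, or a log2 ratio of 0.00 (-0.17 to 0.18). Pdk3 was at 7.02 and 5.61 FPKM, from 239 and 257 fragments, or a log2 ratio of -0.32 (-0.58 to -0.06). The ratio of Pdk3 to Pdk1 changed by -0.33 on the log2 scale, within -0.64 to -0.02. Pdk3 and Pgk1 are on the X chromosome, and Xist, transcribed from the inactive X, was at 177 FPKM in the control and 0.109 FPKM in the Rcor2cko library. The median change of the 411 X-linked genes tested was 0.02, against -0.03 for 11362 autosomal genes. The Y-linked Eif2s3y was at 0 FPKM in the control and 19.8 FPKM in the Rcor2cko library. Together with Xist, this is the pattern of female tissue in the control and male tissue in the Rcor2cko library. Sex and genotype cannot be told apart in this pair, for any of the members.

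Of 12 pairs of isoenzymes or related members compared within a library, 7 had intervals, and 2 of these, Pfkl over Pfkp and Pdk3 over Pdk1, excluded 0. For Bnip3l over Bnip3 the ratio was 3.26 and 3.57, and the interval of its change ran from -0.06 to 0.33. For Hif1a over Epas1 it ran from -0.36 to 0.18.

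The 4 members that are alpha subunits of HIF or its prolyl hydroxylases had log2 ratios near 0. Hif1a was at 30.8 and 30.9 FPKM, or a log2 ratio of 0.00 with a narrow interval from -0.07 to 0.08, from 2649 and 3585 fragments. Epas1 (HIF-2 alpha), known from endothelium, was at 2.04 and 2.17 FPKM, or a log2 ratio of 0.09 (-0.17 to 0.36). Egln1, the main prolyl hydroxylase, was at 20.2 and 19.2 FPKM, or a log2 ratio of -0.07 (-0.18 to 0.04), and Egln3, a hydroxylase that HIF itself induces, at 3.49 and 3.60 FPKM, or a log2 ratio of 0.05 (-0.25 to 0.35). All 4 intervals include 0. Outside the members, Hif3a, a further alpha subunit, was at 2.09 and 3.07 FPKM, or a log2 ratio of 0.53, without an interval. Egln2, a further prolyl hydroxylase, was at 25.6 and 22.8 FPKM, or a log2 ratio of -0.17 (-0.30 to -0.04). HIF is controlled mainly through protein stability, which RNA does not show.

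The genes that hypoxia induces were mixed in sign. Of the 9, 7 passed the filter, with 5 higher and 2 lower (6 and 1 with median, total or upper-quartile scaling) and a median of 0.09. Over all genes tested 42.4% were higher, and 46.7 to 50.5% under the scaling alternatives. Of the 6 with an exact interval, 2, Ndrg1 and Ddit4, lay above 0, against 13.9% over all genes. Ndrg1 led the members. This stress- and differentiation-responsive gene, at chr15:66760883-66801202 of mm9 on the minus strand, was at 25.8 and 38.0 FPKM, from 1313 and 2603 fragments, or a log2 ratio of 0.55 (0.46 to 0.65). It stood at rank 477 from the highest of the 11777 genes. With median scaling its change was 0.59, past 1.5-fold.

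Ddit4 (REDD1), an inhibitor of mTORC1 that hypoxia, glucocorticoids and p53 all induce, at chr10:59412423-59414518 of mm9 on the minus strand, was at 38.9 and 49.8 FPKM, from 1093 and 1882 fragments, or a log2 ratio of 0.35 (0.25 to 0.46). Ankrd37, an ankyrin repeat protein with a HIF-responsive promoter, was at 1.72 and 2.29 FPKM, from 23 and 41 fragments. Its log2 change of 0.39 had an interval from -0.36 to 1.22, so that a difference was not detectable at this depth. The immediate-early genes, which respond to handling of tissue, were lower in 4 of the 5 cases that passed the filter (4 of 6 or 5 of 5 under the scaling alternatives), with a summed level of 56.3 and 51.9 FPKM for all 8 and no marker at 0 in both libraries.

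Vegfa, the angiogenic ligand, was at 14.9 and 15.9 FPKM, or a log2 ratio of 0.09. In the control library it was spread over 4 of 6 listed transcripts, with 52.1% on the one of 3458 nt, 23.4% on the one of 2768 nt, 20.3% on the one of 2636 nt and 4.18% on the one of 2840 nt. The transcripts of 2636 and 2768 nt differ by 132 nt in length. The file of the Rcor2cko library gives the gene only, so that splice forms could not be compared, and setting the highest transcript row against the gene gave a log2 ratio of 1.02 for this reason.

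Bnip3 and Bnip3l (Nix), which direct mitochondria to autophagy, were at 14.8 and 14.0 FPKM and at 48.3 and 50.1 FPKM. Their log2 changes were -0.08 (-0.27 to 0.10) and 0.05 (-0.02 to 0.12). P4ha1, a collagen prolyl hydroxylase, was at 5.82 and 5.75 FPKM, or a log2 ratio of -0.02 (-0.20 to 0.17). The intervals of all 3 include 0, but that of Bnip3l lay above 0 under each of the 4 scaling alternatives. Adm, the vasodilator peptide adrenomedullin, was at 0.581 and 0.499 FPKM from 13 and 15 fragments, and Car9, the carbonic anhydrase taken as a sign of strong hypoxia, at 0.0301 and 0.0223 FPKM from 1 fragment in each library, under the floor of 3 fragments. No difference was detectable in either.

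Lists of neighbouring pathways were read in the same way. All 7 enzymes of the pentose phosphate pathway, which makes ribose and NADPH from glucose 6-phosphate, were lower in the Rcor2cko library (6 with quantile normalization, and the other at 0), none by more than 1.5-fold, with a median of -0.24. The intervals of 5 of the 7 lay below 0, or 4 under each scaling alternative, where Pgd, the phosphogluconate dehydrogenase, lost its call. Over all genes tested 57.6% were lower, and 22.9% of intervals lay below 0. Tkt, the transketolase, was at 87.4 and 70.4 FPKM, or a log2 ratio of -0.31 (-0.37 to -0.26), and Taldo1, the transaldolase, at 88.9 and 86.4 FPKM, or a log2 ratio of -0.04 (-0.13 to 0.05). Of the radial glia markers, Fabp7 was at 372 and 539 FPKM and Vim at 308 and 303 FPKM, the highest of that list.

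Of the other isoenzymes and regulators of glycolysis, 10 of 23 passed the filter, with 6 higher (7 of 11 with median or upper-quartile scaling), 4 lower and a median of 0.05. Bsg, the chaperone of monocarboxylate transporters, was at 85.4 and 96.2 FPKM, or a log2 ratio of 0.17. Pfkfb3, which makes the activator of phosphofructokinase, was at 14.8 and 13.6 FPKM, or a log2 ratio of -0.12. Slc2a4, the insulin-responsive glucose transporter, was past 1.5-fold, at 1.45 and 2.28 FPKM, from 72 and 152 fragments, or a log2 ratio of 0.61 (0.23 to 1.07); with quantile normalization it did not pass 1.5-fold. Slc16a7, another monocarboxylate transporter, had a log2 ratio of 0.56 and passed 1.5-fold with median and upper-quartile scaling, at 0.59. Both were named after their values were seen.

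Genes that carry pyruvate into mitochondria were split evenly, 5 higher and 5 lower of 10 (6 and 4 with median or upper-quartile scaling), with a median of 0.00. Pdhb, a subunit of pyruvate dehydrogenase, was at 53.2 and 54.0 FPKM, and Brp44l, the mitochondrial pyruvate carrier Mpc1 under its older symbol, at 37.1 and 38.2 FPKM. The HIF machinery was split evenly too, 6 and 6 of 12 (7 higher under every scaling alternative), with a median of -0.01. Of its 9 genes with an exact interval, 2 lay above 0 and 3 below, against 13.9% and 22.9% over all genes. Its most abundant genes were Tceb2 (elongin B), at 203 and 186 FPKM, and Rbx1, at 60.8 and 61.4 FPKM. Of the gluconeogenic genes, 3 of 7 passed the filter with 3 lower (2 with median, total or upper-quartile scaling) and a median of -0.08; Pcx, the pyruvate carboxylase, was highest, at 6.39 and 5.08 FPKM, followed by G6pc3 at 5.03 and 4.97 FPKM.

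Among 26 further hypoxia-induced genes, 22 passed the filter, with 14 higher and 8 lower (15 or 16 higher under the scaling alternatives), a median of 0.07, 2 past 1.5-fold higher and 1 past 1.5-fold lower. Over all genes tested 42.4% were higher (46.7 to 50.5% under the scaling alternatives), 3.79% past 1.5-fold higher and 1.76% past 1.5-fold lower. Exact intervals lay above 0 for 6 and below 0 for 2 of the 15 that had one, against 13.9% and 22.9% over all genes. Wsb1, an adaptor of a ubiquitin ligase, was at 116 and 151 FPKM, or a log2 ratio of 0.38, and Ccng2, a cyclin-like gene of arrested cells, at 53.7 and 58.2 FPKM, or a log2 ratio of 0.11. The genes past 1.5-fold were all low, and were named after their values were seen. Car12, a carbonic anhydrase, was at 0.467 and 1.57 FPKM, Pgf, a placental relative of Vegfa, at 0.733 and 1.72 FPKM, and Hmox1, the haem oxygenase, at 2.19 and 1.31 FPKM. Their exact intervals, 1.18 to 2.36, 0.47 to 2.06 and -1.33 to -0.15, all excluded 0. Erythroid markers, which would track blood in the tissue, summed to 528 and 445 FPKM over 9 genes. Of these, Hbb-b1, a globin that can share reads with its near-identical copy Hbb-b2, was past 1.5-fold lower at 153 and 97.5 FPKM, and Hbb-b2 was at 184.1 and 189.9 FPKM. Microglia markers summed to 6.08 and 8.27 FPKM over 4. All 3 that passed the filter were higher (2 with quantile normalization). Csf1r, named after its value was seen, was past 1.5-fold, at 2.67 and 4.32 FPKM. Pericyte markers summed to 13.8 and 17.98 FPKM over 4, and all 3 that passed the filter were higher, none past 1.5-fold. Intermediate progenitor markers summed to 186 and 176 FPKM over 4. The 5 ventral forebrain markers, Dlx1, Dlx2, Dlx5, Gad1 and Gad2, were all more than 1.5-fold higher, with a summed level of 17.0 and 50.5 FPKM. Whether any of these shifts bears on the members was not tested.

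**Figure D4:**
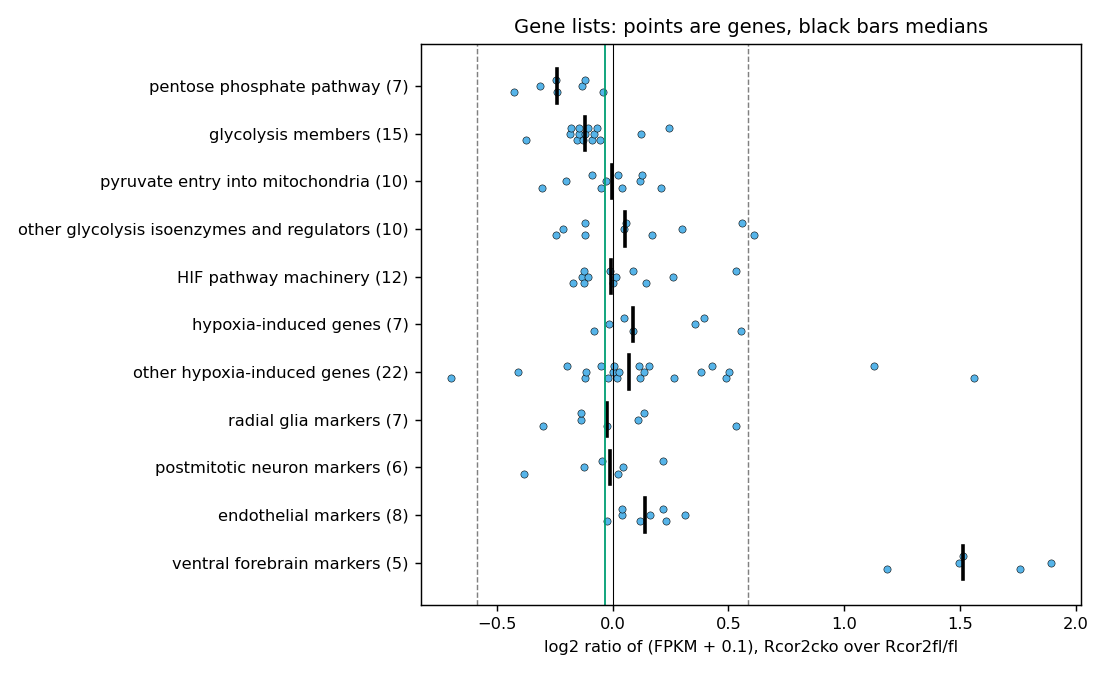
Change between the libraries, log2 of Rcor2cko over Rcor2fl/fl with 0.1 FPKM added to each, for the genes of each list that passed the filter, whose number stands beside its name; points are genes, black bars medians, the green line the median of all genes tested and dashed lines 1.5-fold. The medians of the pentose phosphate and glycolysis lists are -0.24 and -0.12, and the ventral forebrain markers lie apart at 1.51.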

How the data were processed

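RNA-seq of 2 libraries, 1 Rcor2fl/fl and 1 Rcor2cko, was read from the deposited FPKM values. The authors mapped the reads to mm9 with TopHat and estimated FPKM with Cufflinks. The submitters' processing notes name TopHat 1.3.3 and Cufflinks 1.2.0, and the study's methods another TopHat release and Cuffdiff. The control values have 27641 rows, 1 per RefSeq transcript, and were summed per gene; the Rcor2cko values have 21896 rows, 1 per gene. Genes that reached 1 FPKM in either library were compared by log2((Rcor2cko + 0.1)/(Rcor2fl/fl + 0.1)), with no further scaling, and counted above 1.5-fold. No test of genotype is possible with 1 library each.

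Whole fragments were computed for single-transcript genes of 800 nt or more from FPKM × (length − offset) × total, rounded, with the offset (194.1 and 200.9 nt) and total fitted on genes with 1 fragment. The steps were tested on simulated data. Positions are from GENCODE vM1 on NCBIM37 (mm9), and promoters from RefSeq. Python 3.11.15, numpy 2.4.6, pandas 2.3.3, scipy 1.17.1 and matplotlib 3.10.9 were used.

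The members and lists were chosen with earlier results of these data known. Every member found is named. Of the other lists, the 2 genes with the highest mean FPKM, genes past 1.5-fold with a mean of at least 5 FPKM, and genes read beside a member were to be named; others are said to be named after their values were seen. The FPKM status in the files was OK for every row of the members. The alternatives were other pseudocounts, scalings, filters, row choices and call rules, 16 in all, and counts of members and the direction of each list under each scaling, chosen after seeing the data.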

Additional observations from a re-analysis of the deposited data

How the results depend on the processing

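No paired analysis was possible because each genotype has only 1 library. The number of members more than 1.5-fold lower was 0 under all 16 alternatives. The number more than 1.5-fold higher was 1 in place of 0 without a pseudocount (Slc16a3), with median, upper-quartile and quantile scaling (Ndrg1) and with the highest row per gene (Vegfa), and 0 under the others; these genes lie at the threshold, except Vegfa, for which 1 control transcript is set against the whole gene. The median change of the hypoxia-induced members was 0.35 with the highest row per gene, for the same reason, and 0.05 to 0.20 otherwise. The median of the glycolytic enzymes stayed between -0.12 and -0.08, and that of all members between -0.07 and -0.02. Of the 34 members tested, 30 kept their sign, and Eno1, Ldhb, Pdk1 and P4ha1, at -0.05, -0.03, 0.00 and -0.02, changed it under a scaling. Under the scalings, added after seeing the data, exact intervals lay above 0 for 3 to 4 and below 0 for 9 to 11 of the 28 members, and for 13.9 to 17.9% and 16.8 to 22.9% of all genes. Depth leaves Car9, Adm and Ankrd37, from 1 to 41 fragments, with wide intervals.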
